A study of Homo sapiens with 6 samples.

Results

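Divergent transcripts are RNAs whose gene symbol ends in -DT, which marks a transcript that starts beside the promoter of a partner gene and runs away from it on the opposite strand. They were taken as the rows of the count table whose Ensembl identifier maps to such a symbol and whose raw counts over 6 libraries sum to at least 60. This gave 238 transcripts among 60605 genes in the table, of which 17132 reached the same floor. The table held 589 -DT symbols, of which 270 had counts below the floor and 81 had no count. The class was chosen by its lower level in inhibitor-treated cells, selected on the log2 fold changes of these same libraries, so its values in that contrast are given here as a description, with no test.

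The cells were HuCCT-1, an established human bile duct cancer (cholangiocarcinoma) line, grown in DMEM-F12 with fetal bovine serum and antibiotics. Cultures received the PRMT5 inhibitor JNJ-64619178 at 6 nM for 4 days (3 libraries, called JNJ here), or the same volume of the solvent DMSO (3 libraries). A stranded mRNA kit was used, so the libraries read polyadenylated RNA. The labels do not say whether replicates were separate cultures, so the spread behind the p-values may be technical.

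Many mammalian promoters fire in both directions, giving a coding transcript one way and a non-coding transcript the other. Most of the upstream products are terminated early and degraded in the nucleus by the RNA exosome with its adaptor complexes NEXT and PAXT, while those with stable 3' ends, often spliced and polyadenylated, are annotated as genes. PRMT5 is an enzyme that places symmetric methyl marks on arginine in histones, spliceosomal Sm proteins and other RNA-binding proteins.

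The promoters show what these transcripts share by position. RefSeq (GRCh38.p14) held promoter windows, from 250 bases before to 50 bases after a start, for 179 of the 238 transcripts. Of 7 transcripts described below, the stretch between the partner's start and the first 50 transcribed bases is printed, up to the full window. Capitals mark the GC box GGGCGG, which Sp1-type factors bind, and the ETS core CCGGAAG, on either strand, with adjoining matches joined. The first 4 belong to transcripts with low JNJ levels, DNAJC3-DT (chr13:95676876-95677138, minus strand), STAM-DT (chr10:17643869-17644124, minus), CSGALNACT2-DT (chr10:43138344-43138444, minus) and TARS1-DT (chr5:33440585-33440695, minus).
DNAJC3-DT: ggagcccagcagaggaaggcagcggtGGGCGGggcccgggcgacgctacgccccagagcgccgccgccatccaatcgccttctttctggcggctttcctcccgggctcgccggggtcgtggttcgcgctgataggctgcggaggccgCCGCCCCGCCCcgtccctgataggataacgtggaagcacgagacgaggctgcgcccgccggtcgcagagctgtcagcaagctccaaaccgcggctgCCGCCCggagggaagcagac
STAM-DT: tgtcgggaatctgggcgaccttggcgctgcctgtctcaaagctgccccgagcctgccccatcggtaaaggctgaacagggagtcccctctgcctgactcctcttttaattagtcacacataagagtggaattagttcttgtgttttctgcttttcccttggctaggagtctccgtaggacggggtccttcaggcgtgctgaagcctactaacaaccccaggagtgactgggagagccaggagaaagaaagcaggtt
CSGALNACT2-DT: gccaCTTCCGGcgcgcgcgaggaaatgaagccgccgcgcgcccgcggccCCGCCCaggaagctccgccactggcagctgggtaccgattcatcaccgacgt
TARS1-DT: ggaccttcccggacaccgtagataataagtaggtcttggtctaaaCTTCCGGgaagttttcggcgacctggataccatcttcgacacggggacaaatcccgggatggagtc

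The next 3 belong to transcripts that were higher or nearly level with JNJ. They are KLHDC7B-DT (chr22:50544811-50545110, minus strand, 1 of 3 RefSeq starts), UBA6-DT (chr4:67701180-67701327, plus) and SLC12A2-DT (chr5:128083126-128083425, minus).
KLHDC7B-DT: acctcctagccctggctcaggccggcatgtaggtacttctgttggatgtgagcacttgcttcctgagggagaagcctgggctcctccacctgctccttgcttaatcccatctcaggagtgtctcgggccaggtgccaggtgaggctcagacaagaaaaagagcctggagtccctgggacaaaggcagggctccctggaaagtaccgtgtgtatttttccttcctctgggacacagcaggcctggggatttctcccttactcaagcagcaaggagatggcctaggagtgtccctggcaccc
UBA6-DT: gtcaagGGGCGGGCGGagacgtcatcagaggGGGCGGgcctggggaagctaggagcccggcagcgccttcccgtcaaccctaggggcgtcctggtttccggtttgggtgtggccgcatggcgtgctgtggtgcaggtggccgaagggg
SLC12A2-DT: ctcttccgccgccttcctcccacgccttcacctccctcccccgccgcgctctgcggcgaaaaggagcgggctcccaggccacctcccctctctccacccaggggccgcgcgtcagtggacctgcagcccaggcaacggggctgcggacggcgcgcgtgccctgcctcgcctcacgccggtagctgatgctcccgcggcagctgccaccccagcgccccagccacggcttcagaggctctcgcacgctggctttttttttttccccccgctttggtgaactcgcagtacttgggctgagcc

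The stretches differ in base composition within both sets. DNAJC3-DT had 33 CG pairs in 263 bases and 4 GC boxes, whereas STAM-DT had 8 CG pairs in 256 bases and no match to either motif. UBA6-DT had 3 GC boxes, and KLHDC7B-DT had 3 CG pairs in 300 bases and no match. Over all 204 windows of the transcripts, the GC box was found in 70.1%, beside 65.9% of 296 partner windows and 45.0% of all 35116 windows. The ETS core was found in 20.1%, 23.6% and 10.3%. The CCAAT box (CCAAT) was found in 31.4%, 36.5% and 34.6%, and the TATA box (TATAAA) in 4.90%, 8.45% and 11.5%. The AP-1 motif TGAGTCA was found in 2.45%, 2.36% and 4.95%. All motifs were read on both strands. The median distance between starts was 101 bases, so windows of a transcript and its partner can cover the same bases. Values of the transcript and partner windows are therefore not independent. Median GC content was 68.8% in windows of the transcripts, 66.7% in partner windows and 58.7% in all windows. Observed over expected CpG was 0.909, 0.878 and 0.579. The median log2 fold change was -0.45 for 128 transcripts with a GC box and -0.45 for 49 without. It was -0.54 for 41 with an ETS core and -0.42 for 136 without, and -0.57 for 61 with a CCAAT box and -0.41 for 116 without. With a TATA box it was -0.56 over 10 transcripts and -0.44 over 167 without, and with the AP-1 motif -0.26 over 4 and -0.45 over 173 without. These splits were not tested.

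Gene models of GENCODE release 29 covered 236 of the 238. Every one of these 236 lay on the strand opposite its partner, and 215 started within 1000 bases of it. In 165 the models were apart, and in 71 they overlapped at their starts. The median distance between starts was 101 bases (quartiles -50.3 and 215, with negative values for overlapping starts). The models had a median of 3 exons (highest 15) and a median exonic length of 1982 bases, and 50 had a single exon. All 238 partners were protein-coding in RefSeq, and all 226 of the transcripts that RefSeq lists were long non-coding RNAs. One of the poly(A) signals AATAAA and ATTAAA lay in the last 50 bases of any annotated transcript for 172 of 236 (72.9%), beside 64.0% of other long non-coding genes and 92.0% of partners. Genes with more annotated transcripts had more chances to hold one. The sources used here do not state whether counting used strand, so reads of a transcript and of a gene overlapping it cannot be told apart.

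Depth was 28133746 to 30691914 counts with DMSO and 23931991 to 28224911 with JNJ. All levels are TMM-scaled CPM (counts scaled to a common library total), with means ± SD for n = 3. Fold changes are JNJ over DMSO from edgeR, with their standard error (SE). The 7 epithelial markers listed for bile duct, KRT7, KRT19, KRT8, KRT18, EPCAM, SOX9 and CDH1, stood between 58.6 and 3756 CPM over the libraries. At an edgeR adjusted p under 0.05, KRT7, KRT19, KRT8 and KRT18 were lower with JNJ and SOX9 was higher. EPCAM and CDH1 did not pass. The highest level of any marker was 0.366 CPM for hepatocytes, 0.105 for leukocytes, 0.945 for endothelium and 0.691 for fibroblasts.

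The divergent transcripts were lower as a class with JNJ. Their CPM summed to 1326, 1304 and 1269 in the DMSO libraries and to 1000, 985 and 980 in the JNJ libraries. The groups did not overlap, and the means were 1300 ± 28.9 and 988 ± 9.92 CPM, a JNJ over DMSO ratio of 0.761. Without the 2 most abundant, GARS1-DT and TMEM161B-DT, the means were 956 ± 13.6 and 747 ± 9.07 CPM and the ratio 0.781. In these bulk samples fewer cells making a transcript and less of it per cell cannot be told apart. The median log2 difference of the transcripts from the DMSO mean was -0.49, -0.43 and -0.47 in the JNJ libraries and 0.04, 0.004 and -0.03 in the DMSO libraries.

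The fit tested 235 of the 238, as POU2F1-DT, STX17-DT and NQO1-DT did not pass its filter on low counts. Among the 235, the median log2 fold change was -0.46 (quartiles -0.74 and -0.07), and 185 were below 0, as were 49.8% of all 17371 genes tested. A decrease of at least 1.5-fold was fitted for 89 transcripts, beside 6.53% of all genes, and of at least 2-fold for 38, beside 1.84%. An increase of at least 1.5-fold was fitted for 2 transcripts, beside 7.94% of all genes. Large fitted changes were more frequent among other long non-coding genes and at low levels. Of 2315 other long non-coding genes tested at the floor of 60, 472 fell at least 1.5-fold, 143 fell at least 2-fold and 221 rose at least 1.5-fold. Of 1798 genes of any kind at 0.5 to 1 CPM, 312 fell and 274 rose at least 1.5-fold. The adjusted p of edgeR's quasi-likelihood test was under the threshold with a lower level for 86 (17.1% of all genes) and with a higher level for 6 (20.0% of all genes). All JNJ libraries lay below all DMSO libraries for 109 (22.2% of all genes) and above them for 10 (24.7% of all genes). The rule used this contrast, so nothing is read from these counts.

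**Figure D1:**
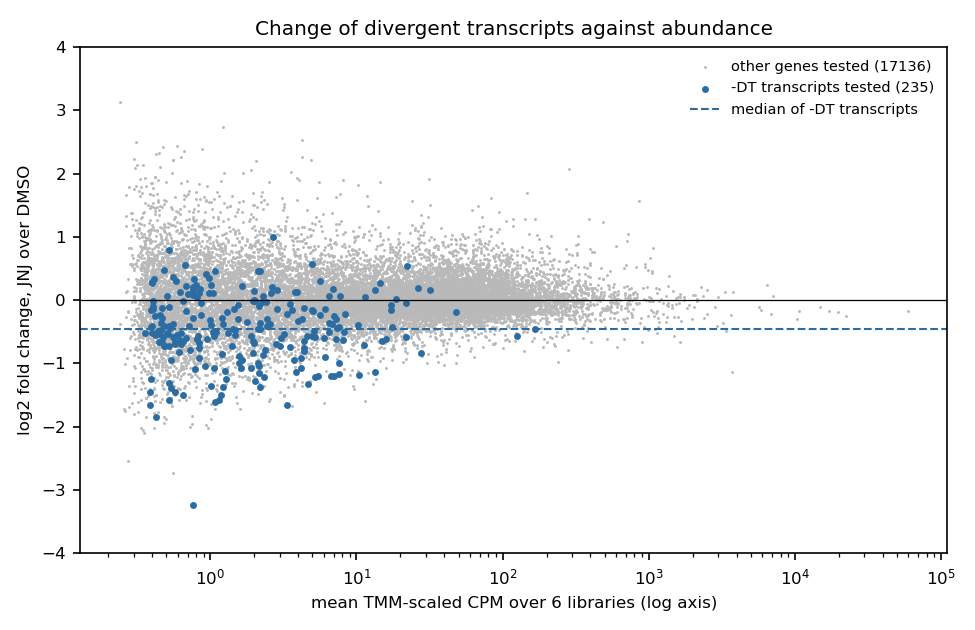
Each point is 1 gene, with its mean TMM-scaled CPM over 6 libraries on a log axis and its log2 fold change (JNJ over DMSO). The 235 divergent transcripts tested (blue) lie mostly below 0, with their median of -0.46 drawn as a dashed line, among the other genes tested (grey).

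The same summary for other non-coding names at the same floor was closer to 0. Antisense names (-AS with a number) had a median log2 fold change of -0.24 over 540 tested, LINC names -0.14 over 304, and host genes of small RNAs (HG names) -0.12 over 66. All other long non-coding genes had a median of -0.15 over 2315, protein-coding genes 0.02 over 12968, and all genes at this floor 0.001 over 17072. These medians describe the classes, and the difference between them was not tested.

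GARS1-DT (ENSG00000196295) and TMEM161B-DT (ENSG00000247828) were the most abundant, and both were lower with JNJ. GARS1-DT, beside the gene of the glycyl-tRNA synthetase, was at 205, 194 and 178 CPM with DMSO and at 138, 143 and 140 CPM with JNJ. The lowest DMSO library stood above the highest JNJ library (193 ± 13.9 and 140 ± 2.73 CPM, log2 fold change -0.46, SE 0.05). TMEM161B-DT was at 151, 154 and 148 CPM with DMSO and at 108, 92.3 and 104 CPM with JNJ, again without overlap (log2 fold change -0.57, SE 0.05). NUP50-DT, beside a nuclear pore protein gene, was at 51.3, 52.4 and 50.6 CPM with DMSO and at 41.3, 50.6 and 43.1 CPM with JNJ. JNJ replicate 2 lay at the level of the lowest DMSO library (log2 fold change -0.19, SE 0.06).

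The other 7 of the 10 most abundant lay on both sides of their DMSO level. EOLA2-DT went from 35.7 ± 1.27 to 19.9 ± 1.63 CPM (log2 fold change -0.84, SE 0.07). RAB30-DT, beside the gene of a Golgi GTPase, went from 26.3 ± 0.978 to 17.5 ± 1.02 CPM (-0.59, SE 0.07). FMNL1-DT, beside a formin gene, went from 30.1 ± 1.09 to 33.5 ± 1.43 CPM (0.16, SE 0.06). ITGB1-DT, beside the integrin beta 1 gene, went from 24.5 ± 1.13 to 28.0 ± 2.48 CPM (0.19, SE 0.07), with a distance between starts of -46947 bases in the annotation. RIPK2-DT, beside the gene of a kinase of NOD receptor signalling, was at 17.9, 18.3 and 18.1 CPM with DMSO and at 28.1, 24.7 and 26.2 CPM with JNJ, a 1.45-fold higher level (log2 0.54, SE 0.07). SLC12A2-DT, beside the sodium, potassium and chloride cotransporter gene, was at 22.1, 22.2 and 22.0 CPM with DMSO and 24.4, 18.0 and 21.9 CPM with JNJ, so the JNJ libraries lay on both sides. FAM151B-DT was at 18.4 ± 1.10 and 18.7 ± 1.03 CPM.

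Among transcripts with a mean of at least 1 CPM and groups that did not overlap, DNAJC3-DT (ENSG00000247400) had the lowest ratio. It stands beside the gene of an endoplasmic reticulum co-chaperone that restrains the kinase PERK. It was at 5.03, 5.40 and 4.79 CPM with DMSO and at 1.42, 1.64 and 1.74 CPM with JNJ (3.15-fold lower, log2 -1.66, SE 0.17). All DMSO libraries lay far above all JNJ libraries. None of its annotated exon bases is shared with another gene. The partner DNAJC3 fell, from 64.2 CPM with DMSO to 55.8 CPM with JNJ (log2 -0.20, SE 0.05, edgeR adjusted p = 0.00271).

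Single-exon transcripts made up 7 of the 12 lowest ratios. STAM-DT, beside an endosomal sorting gene, was at 1.78, 1.70 and 1.45 CPM with DMSO and at 0.366, 0.665 and 0.551 CPM with JNJ (log2 fold change -1.61, SE 0.30). PAPOLA-DT, beside the gene of the main nuclear poly(A) polymerase, was at 1.94, 1.67 and 1.57 CPM and then 0.651, 0.455 and 0.636 CPM (-1.58, SE 0.29). AP1AR-DT was at 2.04, 1.85 and 1.38 CPM and then 0.529, 0.805 and 0.678 CPM (-1.37, SE 0.29). In each of these the highest JNJ library was well under the lowest DMSO library, at levels where the standard error is wide.

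ZKSCAN2-DT and CAPN10-DT were single-exon transcripts at higher levels. ZKSCAN2-DT, beside a zinc finger gene with SCAN and KRAB domains, was at 7.61, 6.81 and 5.68 CPM with DMSO and at 2.56, 2.27 and 3.22 CPM with JNJ (log2 fold change -1.33, SE 0.16). CAPN10-DT, beside a calpain protease gene, was at 10.2, 10.0 and 9.15 CPM and then 3.58, 3.95 and 5.30 CPM (-1.20, SE 0.13). CSGALNACT2-DT, beside a gene of chondroitin sulfate synthesis, was at 2.61, 3.40 and 2.7 CPM and then 1.02, 1.68 and 0.805 CPM (-1.28, SE 0.24). ST3GAL1-DT, beside a sialyltransferase gene, was at 3.79, 3.15 and 2.89 CPM and then 1.06, 1.64 and 1.48 CPM (-1.22, SE 0.21). All 4 had no exon base in common with another gene.

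The other 5 of these 12, DNAJC3-DT included, were spliced. H2AZ1-DT, beside the gene of the histone variant H2A.Z, was at 2.01, 1.85 and 1.35 CPM with DMSO and at 0.569, 0.560 and 0.720 CPM with JNJ (log2 fold change -1.49, SE 0.29). USP34-DT, beside a deubiquitinase gene, was at 3.05, 3.01 and 3.44 CPM and then 1.26, 1.19 and 1.23 CPM (-1.37, SE 0.20). TARS1-DT, beside the threonyl-tRNA synthetase gene, was at 1.64, 1.88 and 1.86 CPM and then 0.651, 0.805 and 0.805 CPM (-1.24, SE 0.26). ANKRD42-DT was at 6.43, 8.19 and 7.16 CPM and then 2.89, 2.94 and 3.56 CPM (-1.22, SE 0.14). Of the 12, 4 share exon bases with another gene, at 25.2% in USP34-DT, 13% in H2AZ1-DT, 10.4% in PAPOLA-DT and 8.74% in ANKRD42-DT.

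The highest ratio belonged to KLHDC7B-DT (ENSG00000272666), beside a kelch domain gene. It was at 1.98, 1.81 and 1.64 CPM with DMSO and at 3.70, 3.50 and 3.60 CPM with JNJ (1.99-fold higher, log2 0.99, SE 0.18), while 42.7% of its exon bases are shared with another gene. Its partner KLHDC7B moved the other way, from 8.10 to 6.27 CPM (log2 fold change -0.37, SE 0.12, edgeR adjusted p = 0.0157), and missed the threshold without any 1 of DMSO replicate 1, DMSO replicate 3 and JNJ replicate 1. PPP1CB-DT, near the gene of a protein phosphatase 1 catalytic subunit, was at 4.52, 4.02 and 3.47 CPM with DMSO and at 6.30, 5.91 and 5.68 CPM with JNJ (0.58, SE 0.14), and starts 15435 bases from its partner. UBA6-DT, beside the gene of a ubiquitin-activating enzyme, was at 13.9, 13 and 12.8 CPM and then 16.0, 17.1 and 14.7 CPM (0.27, SE 0.08). LYPLAL1-DT went from 1.79 ± 0.0943 to 2.46 ± 0.136 CPM and PCMTD1-DT from 5.02 ± 0.288 to 6.22 ± 0.660 CPM. RIPK2-DT, ITGB1-DT and FMNL1-DT complete the 8 highest.

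**Figure D2:**
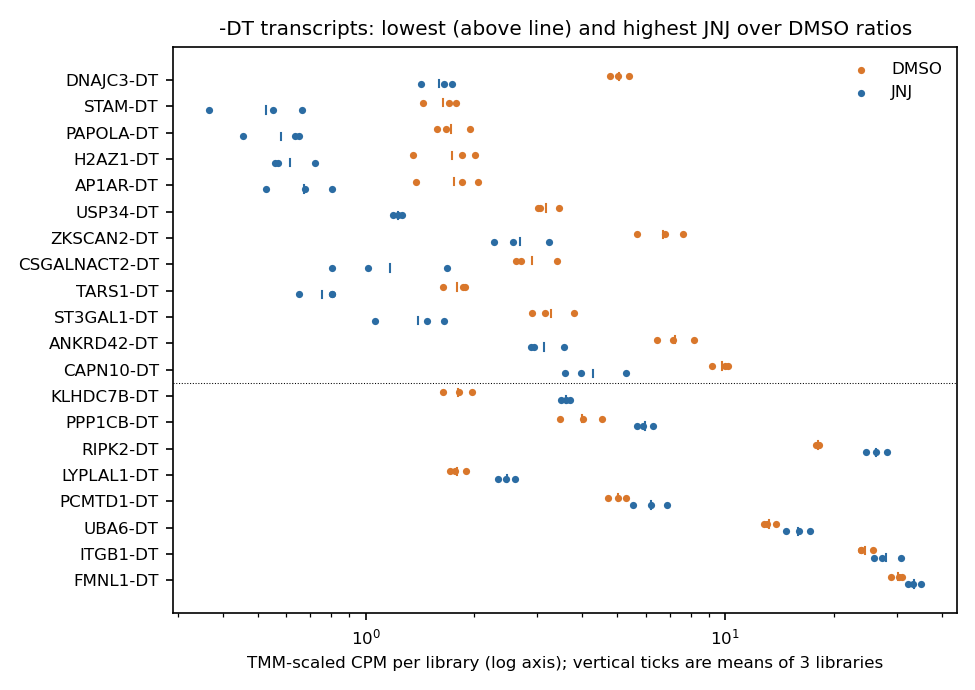
TMM-scaled CPM of each library on a log axis, with DMSO in orange, JNJ in blue and ticks at the mean of 3 libraries. Rows are the 12 lowest and 8 highest ratios among transcripts of mean CPM of at least 1 whose groups did not overlap. The lack of overlap was thus a condition of entry. Rows run from DNAJC3-DT (5.07 and 1.6 CPM) to FMNL1-DT (30.1 and 33.5 CPM).

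ADM-DT, with a mean below 1 CPM and named here after its values were seen, had the lowest ratio of the 235. It stands beside the adrenomedullin gene and was at 1.31, 1.20 and 1.64 CPM with DMSO and at 0.325, 0.0700 and 0.0424 CPM with JNJ (log2 fold change -3.23, SE 0.45). Its partner ADM was at 8.54 and 7.89 CPM (log2 fold change -0.11, SE 0.11, edgeR adjusted p = 0.472). At the count floor, PIK3IP1-DT (total 61, 0.424 ± 0.119 and 0.288 ± 0.217 CPM), STX17-DT (62, 0.370 ± 0.0977 and 0.381 ± 0.0937 CPM) and TAF12-DT (64, 0.356 ± 0.197 and 0.436 ± 0.104 CPM) were just inside. AGA-DT (total 58, 0.349 ± 0.0320 and 0.359 ± 0.160 CPM), MBTPS1-DT (58, 0.345 ± 0.211 and 0.340 ± 0.178 CPM) and CD2BP2-DT (57, 0.372 ± 0.0571 and 0.315 ± 0.0309 CPM) were just outside. In each of these 6 the groups overlapped.

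The median change lay between -0.55 and -0.42 in every abundance class. It was -0.42 for 31 transcripts tested under 0.5 CPM, -0.52 for 61 between 0.5 and 1, -0.55 for 41 between 1 and 2, -0.43 for 52 between 2 and 5, and -0.43 for 50 at 5 CPM and over. All genes at the same levels had medians of -0.04, -0.03, -0.02, -0.01 and 0.01, and other long non-coding genes -0.17, -0.12, -0.14, -0.16 and -0.15. The share past the threshold with a lower level was 12.9%, 14.8%, 46.3%, 46.2% and 60% of the transcripts, beside 4.94%, 7.62%, 11.4%, 15.8% and 20.9% of all genes. For other long non-coding genes it was 4.84%, 11.1%, 16.4%, 29.1% and 43.2%. All of these shares were lowest under 0.5 CPM, where counts are fewest.

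Single-exon transcripts had the lowest median and those with 6 or more exons the highest. With 1 exon the median log2 fold change was -0.63 over 49 transcripts, with 2 exons -0.52 over 54, with 3 exons -0.41 over 52, with 4 to 5 exons -0.43 over 54, and with 6 or more -0.26 over 24. Other long non-coding genes had medians of -0.18, -0.14, -0.17, -0.17 and -0.05 in the same classes. The median was -0.52 for 129 transcripts with no exon base shared with another gene and -0.38 for 104 with some. By distance, 99 with starts 0 to 200 bases apart had a median of -0.48, 40 with 201 to 500 bases -0.60, 13 with 501 to 1000 bases -0.24 and 10 farther apart -0.51. Where starts overlapped, the median was -0.40 for 60 with up to 1000 bases and -0.28 for 11 with more. These splits were made with the values known and were not tested.

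**Figure D3:**
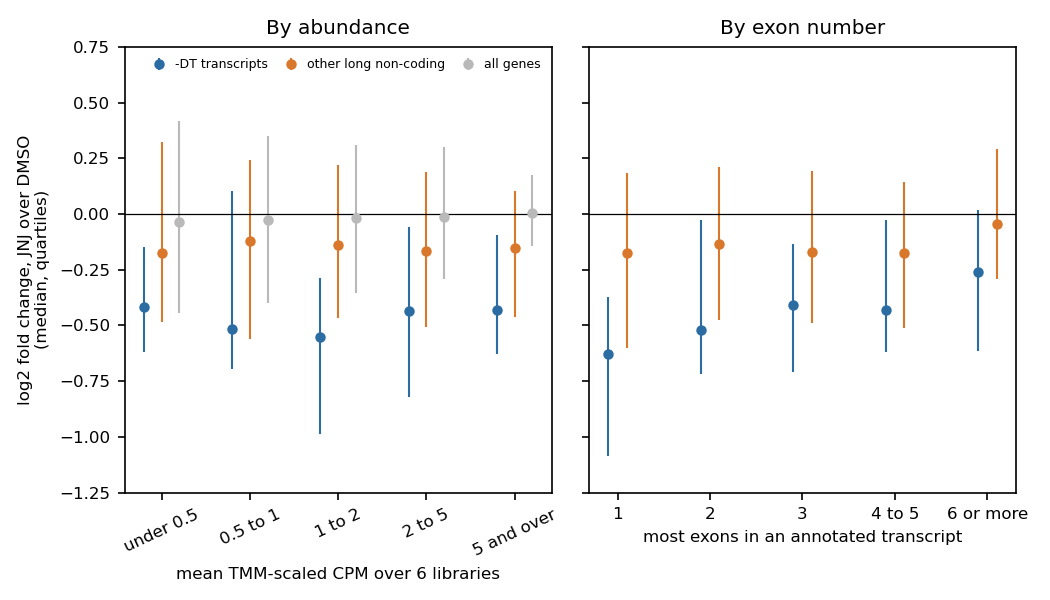
Median log2 fold change (JNJ over DMSO) with bars from the lower to the upper quartile, by mean TMM-scaled CPM (left) and by the most exons in an annotated transcript (right). Divergent transcripts (blue) lie below other long non-coding genes (orange) in every class, and their medians run from -0.63 with 1 exon to -0.26 with 6 or more.

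The partner genes give the polyadenylated RNA level on the coding side of these promoters, not promoter activity. Since they are other rows of the table, they were tested. Of 235 tested, 60 rose (25.5%, beside 20.0% of all genes), 52 fell (22.1%, beside 17.1%) and 123 did not pass the threshold. Of protein-coding genes at the count floor of 60, 24.1% were higher and 16.9% lower. Most partners stood at 5 CPM and over, where 25.5% of all genes were higher and 20.9% lower. The partners' median log2 fold change was 0.02, and -0.01 without DMSO replicate 1. The median of the divergent transcripts was -0.51 beside 60 partners that rose, -0.43 beside 51 that fell and -0.46 beside 121 that did not pass. Across 232 pairs, Pearson's r between the changes of transcript and partner was -0.01 and Spearman's rho was -0.01. These pairs share the same 6 libraries, and the models of some overlap.

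Single pairs show the range. TARS1 rose from 364 to 433 CPM (log2 change 0.25, SE 0.04, edgeR adjusted p = 5.51e-05) beside TARS1-DT at -1.24, and ST3GAL1 rose from 73.0 to 84.8 CPM (0.21, SE 0.05, adjusted p = 0.00114) beside ST3GAL1-DT at -1.22. TMEM161B rose from 56.3 to 66.8 CPM (0.25, SE 0.06, adjusted p = 0.00233) and EOLA2 from 28.8 to 35.0 CPM (0.28, SE 0.06, adjusted p = 0.000744), each beside a lower transcript. FMNL1 rose from 86.7 to 138 CPM (0.67, SE 0.05, adjusted p = 2.76e-11) and FMNL1-DT was also higher. CSGALNACT2 (-0.20, SE 0.06, adjusted p = 0.00721) and ANKRD42 (-0.19, SE 0.06, adjusted p = 0.0159) fell with their transcripts, the first not without DMSO replicate 1 and the second not without JNJ replicate 2 or 3. GARS1 (0.03, SE 0.04), STAM (-0.01, SE 0.09), H2AZ1 (-0.02, SE 0.06), CAPN10 (-0.00, SE 0.06) and RIPK2 (-0.08, SE 0.08) did not pass.

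Most transcripts were less abundant than their partners. Per kilobase of exon, the median DMSO level over 236 pairs was 1.13 CPM for the transcripts and 6.91 CPM for the partners. A transcript stood at a median of 17.2% of its partner (quartiles 7.15% and 41.7%), and 34 stood above it. TMEM161B-DT was at 34.0 CPM per kilobase beside 5.86 for TMEM161B, and RAB30-DT at 10.8 beside 1.01 for RAB30. DNAJC3-DT was at 1.68 beside 11.5, and PAPOLA-DT at 1.14 beside 19.4.

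**Figure D4:**
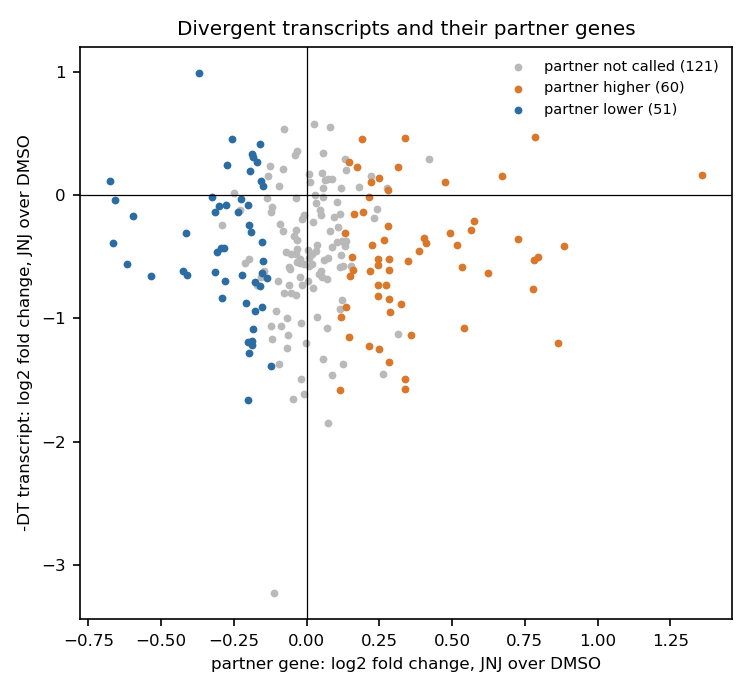
Each point is 1 promoter pair, with the log2 fold change (JNJ over DMSO) of the partner gene across and of its divergent transcript up, coloured by whether the partner rose (60), fell (51) or did not pass the threshold (121). Pearson's r is -0.01 over 232 pairs, and most lie below 0 whichever way the partner moved.

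Partners were sorted by known role into 14 groups holding 145 of the 238, with the values known, so the groups are described only and their examples were picked after the values were seen. Of all 235 transcripts tested, 185 (78.7%) were below 0. Beside the 93 partners with no role assigned, 67 of 92 transcripts tested were below 0 (median -0.37). Beside genes of cohesin, condensin and related SMC complexes, which fold chromosomes, all 5 transcripts were below 0 (median -0.94). NIPBL-DT (ENSG00000285967), beside the cohesin loader gene, was at 18.5, 17.8 and 18.6 CPM with DMSO and at 8.95, 7.77 and 8.35 CPM with JNJ (log2 fold change -1.14, SE 0.09), with the groups far apart. Its partner NIPBL rose from 85.2 to 109 CPM (0.36, SE 0.06, adjusted p = 4.31e-05). WAPL-DT, beside the cohesin release factor, was at 4.92 ± 0.603 and 2.56 ± 0.429 CPM, and SMC2-DT at 0.789 ± 0.322 and 0.260 ± 0.140 CPM.

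Transcripts beside translation genes were all below 0 as well, 6 of 6 with a median of -0.66. Beside genes of RNA processing and modification 9 of 11 were below 0 (median -0.64). METTL14-DT, beside the gene of an m6A methyltransferase subunit, went from 2.02 ± 0.203 to 1.10 ± 0.248 CPM, and HNRNPD-DT from 3.01 ± 0.377 to 1.33 ± 0.527 CPM. SF1-DT, beside the gene of a branch point binding protein, went from 0.961 ± 0.281 to 0.335 ± 0.116 CPM. Beside chromatin and histone genes 11 of 13 were below 0 (median -0.63), with ING2-DT lowest (0.671 ± 0.113 to 0.183 ± 0.126 CPM).

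Beside genes of vesicle and Golgi traffic 10 of 12 tested were below 0 (median -0.80), ARFGEF1-DT among them (0.557 ± 0.0870 to 0.223 ± 0.171 CPM). Beside the ubiquitin system 9 of 12 were below 0 (median -0.46). RNF139-DT, beside a ubiquitin ligase gene, was at 7.54, 7.06 and 8.09 CPM with DMSO and at 3.21, 3.04 and 3.73 CPM with JNJ (log2 fold change -1.19, SE 0.13). Beside zinc finger genes 12 of 13 were below 0 (median -0.43), and ZNF132-DT went from 2.89 ± 0.307 to 1.42 ± 0.139 CPM while ZNF132 itself was too low to test. Beside other transcription factor genes 11 of 12 were below 0 (median -0.42), including RELA-DT (7.27 ± 0.164 to 5.67 ± 0.257 CPM) beside the gene of an NF-kappa-B subunit.

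Beside kinase and phosphatase genes 10 of 12 were below 0 (median -0.38). GSK3B-DT was at 11.5, 11.1 and 8.83 CPM with DMSO and at 6.10, 4.37 and 3.48 CPM with JNJ (log2 fold change -1.17, SE 0.15). PTPN23-DT went from 1.43 ± 0.452 to 0.678 ± 0.287 CPM. Its groups overlapped, with DMSO replicate 2 at 0.906 CPM and JNJ replicate 3 at 0.932 CPM. PPP4R3B-DT went from 1.07 ± 0.578 to 0.505 ± 0.144 CPM, but 81.3% of its exon bases are shared with another gene. Beside cytokine and growth factor genes 7 of 10 were below 0 (median -0.44), with OSMR-DT going from 4.37 ± 0.510 to 2.62 ± 0.390 CPM and IL6ST-DT from 1.89 ± 0.438 to 2.06 ± 0.628 CPM. Beside cytoskeleton and adhesion genes 12 of 14 were below 0 (median -0.44), and beside nuclear pore and import genes 4 of 4 (median -0.51).

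The medians nearest 0 stood beside membrane transport genes (6 of 8 below 0, median -0.12) and mitochondrial genes (6 of 11, median -0.01). SLC2A1-DT, beside the glucose transporter 1 gene, went from 2.56 ± 0.303 to 1.24 ± 0.407 CPM. MRPL20-DT, beside a mitochondrial ribosomal protein gene, was at 7.94, 10.7 and 9.31 CPM with DMSO and at 3.66, 4.37 and 4.11 CPM with JNJ (log2 fold change -1.20, SE 0.13), while MRPL20 rose from 27.9 to 50.9 CPM (0.87, SE 0.06, adjusted p = 8.13e-11). MRPS30-DT was at 2.01, 1.34 and 2.15 CPM and then 3.13, 2.13 and 2.37 CPM, which overlap, while MRPS30 fell from 59.9 to 50.2 CPM (-0.26, SE 0.06, adjusted p = 0.000669).

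**Figure D5:**
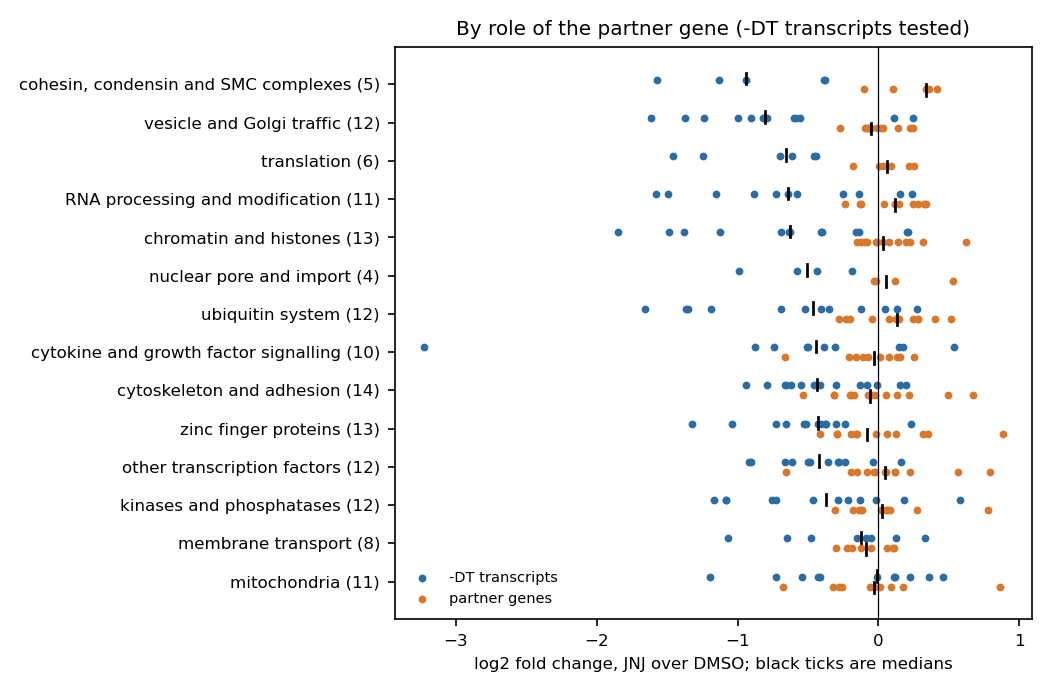
Log2 fold changes (JNJ over DMSO) of divergent transcripts (blue) and their partner genes (orange) by role of the partner, with black ticks at the medians and the number of transcripts tested in brackets. The transcripts' medians run from -0.94 beside cohesin, condensin and SMC genes to -0.01 beside mitochondrial genes.

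The machinery that ends or degrades upstream transcripts was read from a list of 81 genes, all tested. Of these 25 rose (20.0% of all genes tested did), 12 fell (17.1% of all genes) and 44 did not pass, with a median log2 fold change of 0.06. All 81 had mean levels above 5 CPM, and at 5 CPM and over 25.5% of all genes were higher and 20.9% lower. With upper-quartile scaling 16 of the 81 rose and 19 fell, so the direction on balance depends on scaling. In the exosome core and its nucleases 5 of 13 rose and 1 fell. DIS3, the catalytic nuclease, rose from 63.0 to 83.7 CPM (0.41, SE 0.05, edgeR adjusted p = 8.03e-07), EXOSC10 by 0.20, EXOSC8 by 0.26, EXOSC5 by 0.28 and MPHOSPH6 by 0.23 on the log2 scale, and EXOSC3 fell by 0.30. MPHOSPH6 missed the threshold in 9 alternatives, among them leaving out any 1 of 5 libraries.

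In NEXT, the helicase MTREX fell from 84.4 to 73.9 CPM (log2 change -0.19, SE 0.05, edgeR adjusted p = 0.00400), ZCCHC8 rose from 52.1 to 58.5 CPM (0.17, SE 0.06, adjusted p = 0.0302), and RBM7 did not pass (0.09, SE 0.09). ZCCHC8 missed the threshold in 4 alternatives, among them leaving out DMSO replicate 3 or JNJ replicate 3. In PAXT, RBM26 rose (0.23, SE 0.05, adjusted p = 0.000353), and ZFC3H1 (-0.13), PABPN1 (-0.15), ZC3H3 (0.05) and RBM27 (-0.005) did not pass. ZFC3H1 (adjusted p = 0.0513) passed as lower in 7 alternatives, among them RLE and upper-quartile scaling, limma-voom and leaving out DMSO replicate 3 or JNJ replicate 1. PABPN1 passed as lower with upper-quartile scaling and without JNJ replicate 2. Both restrictor subunits rose, ZC3H4 by 0.20 (lost without DMSO replicate 1 or 3) and WDR82 by 0.17 (lost without DMSO replicate 2), and both missed the threshold with upper-quartile scaling. Of 6 cap-binding and ARS2 genes, 0 passed in edgeR, DESeq2 or limma-voom, and 2 had an unadjusted p under 0.05 in each tool. The largest differences there were NCBP1 (-0.13) and NCBP3 (0.11).

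Integrator, which cleaves short nascent RNAs, had 5 of 14 genes that rose and 3 that fell. INTS2 rose from 14.2 to 23.6 CPM (log2 change 0.73, SE 0.08, edgeR adjusted p = 3.62e-08) and INTS11, its endonuclease, from 165 to 220 CPM (0.42, SE 0.05, adjusted p = 3.28e-07). INTS1, INTS6 and INTS8 rose by 0.23, 0.24 and 0.24, and INTS3, INTS7 and INTS10 fell by 0.31, 0.22 and 0.22. INTS7 missed the threshold without DMSO replicate 1 or JNJ replicate 1. Among 20 cleavage and polyadenylation factors, CPSF1 (0.40), CPSF3 (0.15), CPSF7 (0.40), CSTF1 (0.49), WDR33 (0.19), CLP1 (0.30) and PAPOLA (0.11) rose, and CPSF6 (-0.33), CSTF2T (-0.34), PCF11 (-0.15) and RBBP6 (-0.15) fell. Of these, PAPOLA missed the threshold in 10 alternatives (adjusted p up to 0.34) and CPSF3 in 9 (up to 0.22), DESeq2 among them for both. RBBP6 missed it in 5, PCF11 in 3 and WDR33 in 2, each without at least 1 of the libraries.

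The U1 snRNP shields transcripts from early cleavage. Among 13 genes of this particle and of LUC7-like factors associated with it, LUC7L rose from 55.4 to 102 CPM (log2 change 0.89, SE 0.05, edgeR adjusted p = 5.05e-13). SNRPD2 rose by 0.15 and missed the threshold in 5 alternatives, among them leaving out any 1 of 4 libraries. SNRPA fell by 0.32 and LUC7L3 by 0.19. Of 5 further genes that act on antisense transcription at promoters, SUPT6H rose by 0.38 and SUPT16H by 0.13, and PPP1R10 fell by 0.21. SUPT16H missed the threshold in 10 alternatives, among them leaving out any 1 of 5 libraries. How far these RNA levels go with the levels of the divergent transcripts was not tested.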

How the data were processed

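The deposited file holds raw counts of reads for each gene in the 6 libraries, as the authors left them without normalization. The submitters' processing notes list limma, edgeR, featureCounts 1.6.0, STAR 2.7.9a and FastQC 0.11.8, without roles. These notes name the mouse build GRCm39, but the identifiers are human, so the build is uncertain. Whether counting was stranded was not given in the sources used here. Of 60649 rows, 44 repeated an identifier with a total of 0 and were dropped, and 60463 genes were matched to a symbol.

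Genes passing edgeR's filterByExpr (minimum count 10, minimum total 15) were kept (17371). Libraries were scaled by TMM and JNJ was compared with DMSO by edgeR 4.0.16 (glmQLFit, glmQLFTest, group only), with Benjamini-Hochberg adjustment over all genes tested at a threshold of 0.05. The script was tested on simulated counts. Between replicates, chi-square per degree of freedom was 2.69 to 9.08, above sampling noise. Gene models came from GENCODE release 29, in which 58337 identifiers (96.3%) were found, and promoter windows from RefSeq.

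Described transcripts are the 10 most abundant, those with the 12 lowest and 8 highest fold changes among transcripts of mean CPM of at least 1 whose groups did not overlap, the 3 on each side of the count floor, the 2 lowest per class of partner symbol with at least 5 members, and examples by partner role chosen after values were seen. Partners of these, and turnover genes past the threshold or in NEXT, PAXT and restrictor, are named. The transcripts, lists and groups were chosen with earlier results of these data known. Alternatives were DESeq2 1.42.0, limma-voom (limma 3.58.1), RLE and upper-quartile scaling, other filters and count floors, the replicate number as a block, and leaving out each library. R 4.3.3 was used.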

Additional observations from a re-analysis of the deposited data

How the results depend on the processing

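Of the divergent transcripts, 165 of 185 below 0 were below 0 in each of the 14 fits that tested them. Past the threshold, 60 of the 86 lower and 3 of the 6 higher stayed so in each fit that included them. A missing adjusted p was counted as not passing. The median log2 fold change of the divergent transcripts was -0.52 with upper-quartile scaling. It was -0.52 for those sharing no exon base with another gene, an alternative chosen after seeing the data. Leaving out each library in turn gave -0.49 to -0.43. The count below 0 was 117 of 145 tested when CPM above 1 in at least 3 libraries was required, since fewer were tested.

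The median of partner genes was -0.038 with upper-quartile scaling and ran from -0.01 (-0.00559, without DMSO replicate 1) to 0.030 when a library was left out, with 0.002 without JNJ replicate 1. With upper-quartile scaling 16 turnover genes were higher and 19 lower, with a median of 0.00163. That scaling moved the median of all genes to -0.06 and gave 2800 higher and 4099 lower over all genes, in place of 3478 and 2970. The cause was not tested.

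Same-numbered samples did not deviate together (correlations -0.02, -0.01 and 0.002). With the replicate block, 3311 genes were higher and 2821 lower. For named genes, 102 comparisons with an alternative lost a call, 21 gained one and 0 called values changed sign. Below 1 CPM, counting error limits single ratios.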
